A study of Mus musculus with 36 samples.

Results

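Oxidative phosphorylation was followed through 78 of the 12394 genes on the arrays. A gene was taken by its symbol alone, where that symbol begins with Ndufa, Ndufb, Ndufc, Ndufs, Ndufv, Sdha to Sdhd, Uqcr, Cox4 to Cox8 or Atp5. Complexes were likewise assigned by symbol, so Ndufa4 counts in complex I for its symbol only. By that count 33 are subunits of complex I, 4 of complex II, 7 of complex III, 13 of complex IV and 10 of complex V. The other 11 carry symbols of the same kind (7 Ndufaf and 4 Sdhaf genes) but encode assembly factors, which help to build complexes I and II and are not part of them. The reference gene table holds 100 protein-coding genes that match the rule, of which 78 had a probe. Among genes without one were Cox4i2, Cox5b, Cox6c, Cox8c, Ndufa4l2, Atp5g1 and Atp5g2.

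The tissues were brain, heart, kidney and liver. They came from female FVB mice, 6 to 8 weeks old, which all carried a luciferase transgene. Its promoter is not stated in the labels used here. Each tissue had 3 arrays from mock mice, which the series description gives as untreated, 3 from mice given LPS, and 3 from mice given LPS and then genipin, so the 36 arrays formed 12 groups. LPS (bacterial lipopolysaccharide, 4 mg/kg) went into the peritoneal cavity, genipin (a compound from gardenia fruit) followed 10 min later, and tissue was taken at 4 h. Mock against LPS therefore also sets uninjected against injected mice. The labels used here do not state which genipin dose these arrays had, nor whether each array stands for a mouse of its own, so p-values here measure only the spread between arrays, which may be technical.

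The respiratory chain sits in the inner mitochondrial membrane. Complexes I and II pass electrons from NADH and from succinate to ubiquinone, complex III passes them on to cytochrome c, and complex IV hands them to oxygen. Complexes I, III and IV pump protons as they do so, and complex V, the ATP synthase, uses the return of those protons to make ATP. Most subunits are the same in every tissue, but complex IV has isoforms: Cox6a2, Cox7a1 and Cox8b are the forms of striated muscle, while Cox6a1, Cox7a2 and Cox8a serve other tissues. The 4 Sdhaf proteins act on complex II: SDHAF1 and SDHAF3 serve the iron-sulphur subunit, SDHAF2 attaches the flavin to SDHA, and SDHAF4 acts on flavinated SDHA. Nuclear respiratory factor NRF1 and the ETS factor GABPA are known regulators of many genes of the chain.

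Promoter windows are a property of the members that the rule did not use. RefSeq windows of 300 bases (250 before and 50 after the annotated start, build GRCm38.p6) were at hand for 67 of the 78 members. The core of NRF1 sites, searched as GCGC, then A, any base (N) and GCGC without a gap, stood on either strand in 16 of these 67 genes (23.9%), against 5.19% of 27025 genes with a window. The ETS core CCGGAAG, stood on either strand in 17 (25.4%), against 9.93% of all genes. One motif or the other was found in 43.3% of the members, in 14% of all genes, and in 7 of the 10 assembly factors with a window. The windows of Sdhaf1 (chr7:30322326-30322625, minus strand), Sdhaf3 (chr6:6955768-6956067, plus strand) and Sdhaf4 (chr1:24005591-24005890, minus strand) are shown since these genes had the largest falls of any readable member after LPS in liver, kidney and heart in turn. That of Cox7a1 (chr7:30183921-30184220, plus strand) is shown beside them as a muscle isoform whose window holds neither motif. Capitals mark each NRF1 or ETS match, read 5′ to 3′ on the gene's strand, and a match describes the letters without showing that a factor binds.
Sdhaf1: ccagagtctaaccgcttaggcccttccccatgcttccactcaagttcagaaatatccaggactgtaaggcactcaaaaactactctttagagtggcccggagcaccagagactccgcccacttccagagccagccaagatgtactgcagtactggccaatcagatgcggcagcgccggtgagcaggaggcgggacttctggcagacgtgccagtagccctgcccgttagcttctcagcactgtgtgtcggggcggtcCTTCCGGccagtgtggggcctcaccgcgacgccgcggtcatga
Sdhaf3: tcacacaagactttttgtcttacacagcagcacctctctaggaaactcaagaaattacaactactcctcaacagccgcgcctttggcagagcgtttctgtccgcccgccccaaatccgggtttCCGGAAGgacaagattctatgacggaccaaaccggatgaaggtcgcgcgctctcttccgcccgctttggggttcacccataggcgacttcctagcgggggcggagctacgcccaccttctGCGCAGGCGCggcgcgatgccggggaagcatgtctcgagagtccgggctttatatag
Sdhaf4: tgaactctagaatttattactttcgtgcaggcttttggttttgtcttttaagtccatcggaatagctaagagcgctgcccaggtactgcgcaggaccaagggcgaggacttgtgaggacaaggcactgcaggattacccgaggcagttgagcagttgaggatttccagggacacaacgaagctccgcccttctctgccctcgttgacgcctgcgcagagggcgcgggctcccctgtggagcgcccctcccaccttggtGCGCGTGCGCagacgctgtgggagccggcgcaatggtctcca
Cox7a1: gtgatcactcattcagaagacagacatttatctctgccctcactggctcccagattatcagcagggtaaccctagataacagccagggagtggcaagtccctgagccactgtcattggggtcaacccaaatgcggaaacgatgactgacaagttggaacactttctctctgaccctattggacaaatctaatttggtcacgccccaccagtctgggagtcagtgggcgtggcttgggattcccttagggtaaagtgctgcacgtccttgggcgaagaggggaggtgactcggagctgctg
In Sdhaf1 the capitals are an ETS match on the opposite strand, in Sdhaf3 an ETS and then an NRF1 match, and in Sdhaf4 an NRF1 match on the opposite strand.

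Many subunits were too bright for the scanner, which limits what could be compared. The deposited values are linear intensities that end at the top of the scanner's range, and a gene with any array at 60000 or more in a tissue was set apart there. In heart this held for 42 of the 77 measured members (54.5%), in kidney for 25 of 76 (32.9%), in brain for 17 of 77 (22.1%) and in liver for 8 of 73 (11%), whereas between 1.54% and 1.79% of all genes were so bright. Complex V led in heart with 9 of 10 genes, and no assembly factor reached 60000 in any tissue. Cox8a and Atp5g3 were at 60000 or more on every array of all 4 tissues, so nothing can be said about their changes. The remaining members, 65 in liver, 60 in brain, 51 in kidney and 35 in heart, are called the readable members below.

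By name, the members with all 9 arrays of heart at 60000 or more were Ndufa1, Ndufa5, Ndufa6, Ndufa12, Ndufa13, Ndufb4, Ndufb5, Ndufb8, Ndufs4, Ndufs7, Ndufv1 and Ndufv2 of complex I, Uqcr10, Uqcrc2 and Uqcrh of complex III, Cox4i1, Cox5a, Cox6b1, Cox7b and Cox8a of complex IV, and Atp5a1, Atp5b, Atp5c1, Atp5g3, Atp5k, Atp5mpl and Atp5pb of complex V. A further 15 had part of their heart arrays there, namely Ndufa2, Ndufa4, Ndufa10, Ndufb2, Ndufb3, Ndufs5, Ndufv3, Sdhb, Sdhd, Uqcrc1, Cox6a2, Cox7a1, Cox8b, Atp5d and Atp5e. In kidney, Ndufa6, Ndufb4, Ndufb8, Ndufs4, Uqcr10, Uqcrh, Cox4i1, Cox5a, Cox6a1, Cox7b, Cox8a, Atp5a1, Atp5b, Atp5g3 and Atp5mpl were there on all arrays, and Ndufa1, Ndufa4, Ndufa5, Ndufa12, Ndufa13, Ndufb5, Uqcrc2, Cox6b1, Atp5c1 and Atp5k on some. In brain, Ndufa13, Ndufb8, Cox4i1, Cox6b1, Cox7b, Cox8a, Atp5a1, Atp5c1 and Atp5g3 were there on all arrays, and Ndufa6, Ndufb4, Uqcrh, Cox5a, Cox6a1, Atp5b, Atp5k and Atp5mpl on some. In liver, Ndufa6, Cox4i1, Cox7b, Atp5a1, Atp5b and Atp5c1 were there on some arrays beside Cox8a and Atp5g3. Uqcrq had no value in brain, kidney and liver, Cox7b2 none in heart, kidney and liver, Cox6a2 and Cox8b none in liver, and Ndufaf7 none in liver.

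**Figure D1:**
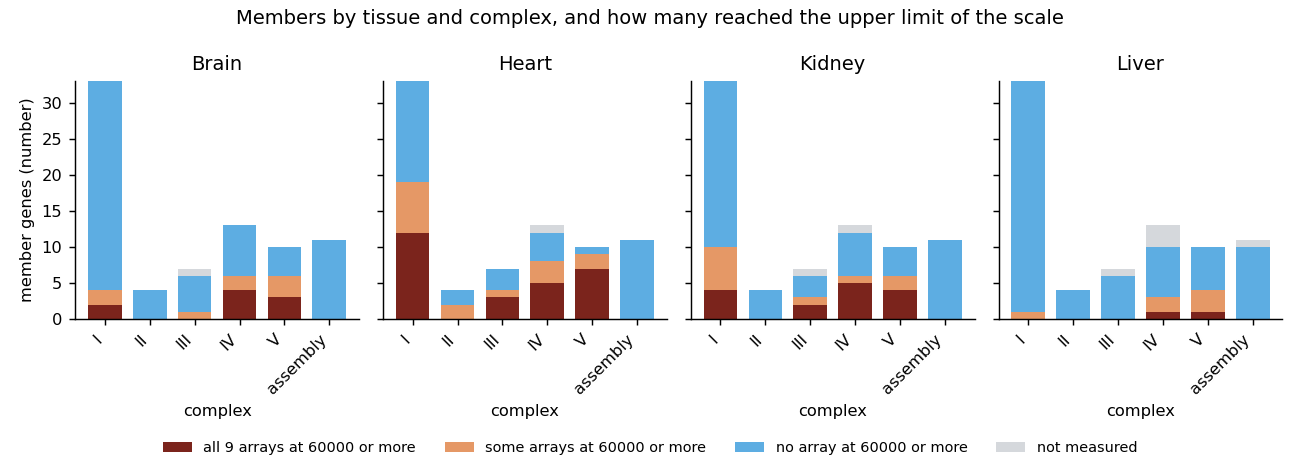
Number of members in each complex and tissue, split by whether all 9 arrays, some arrays or no array read 60000 or more. The bright share is the largest in heart, where 42 of 77 measured members had such an array, and is 0 for the assembly factors in all 4 tissues.

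The arrays within each tissue had nearly equal medians, 2095.5 to 2098.1 in brain, 1810.8 to 1811.9 in kidney, 1462.8 to 1464.2 in heart and 1252.0 to 1253.3 in liver, and arrays of a group correlated at 0.985 to 0.998. Of the markers of each labelled tissue, 8 of 10 neuron markers were measured in brain and 9 of 9 cardiomyocyte markers in heart. In kidney 6 of 6 proximal tubule markers were measured, and in liver 7 of 8 hepatocyte markers. Such counts do not give their levels. Differences are given on the log2 scale between group means ± SE, with 3 arrays per group throughout. Adjusted p-values are from limma, two-sided, over all genes of the tissue, with 0.05 as the threshold. A bulk sample cannot tell fewer cells of a type from less RNA per cell.

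In brain, LPS was followed by a drop of the muscle isoforms of complex IV and of 4 assembly factors. The share of readable members that fell was near that of all readable genes, while the share that rose was lower. Of the 60 readable members, 13 fell (21.7%) and 1 rose, where 17.8% of all readable genes fell and 16.6% rose. With the bright members included, 16 of 77 passed, against 34% of all genes. The median difference of the readable members was −0.0908, with 45 of the 60 below 0, and that of all readable genes −0.0029. By complex, 5 of 29 readable members fell in complex I, 0 of 4 in II, 0 of 5 in III, 3 of 7 in IV, 1 of 4 in V and 4 of 11 assembly factors. Calls kept in every setting and with any 1 array left out were 9 of 16.

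Cox6a2, a small regulatory subunit of complex IV found in striated muscle, read 2785, 2658 and 2752 on the mock brain arrays, 376, 323 and 304 on the LPS arrays and 557, 513 and 554 on the LPS plus genipin arrays. The 3 groups did not overlap, with mock far above both others and genipin slightly above LPS alone. The difference was −3.04 ± 0.08 for LPS against mock (adjusted p = 1.44e-07), 0.70 ± 0.08 for LPS plus genipin against LPS (adjusted p = 0.000592) and −2.34 ± 0.08 for LPS plus genipin against mock (adjusted p = 1.4e-06). Cox8b, the muscle form of subunit 8, read 1279, 1342 and 1260.2 in mock, 43, 143 and 130.3 with LPS and 225, 244 and 222 with LPS plus genipin. Both treated groups lay below the floor of 262.7 set for dim values, so Cox8b was at least 4.922-fold lower in each than in mock (adjusted p = 1.37e-08 with LPS), and the treated groups cannot be set against each other.

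Cox7a1, the muscle form of subunit 7a, read 2393, 1874 and 2034 in mock, 1110.5, 1021 and 819 with LPS and 885, 765 and 950.3 with LPS plus genipin. Mock stood above both treated groups, which overlapped each other. It was −1.10 ± 0.14 with LPS (adjusted p = 0.000851) and −1.28 ± 0.14 with LPS plus genipin, both against mock (adjusted p = 0.000806). Of the forms used outside muscle, Cox7a2 differed by −0.32 ± 0.12 with LPS (adjusted p = 0.0831), and Cox6a1 and Cox8a were too bright to read.

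Transcripts of skeletal muscle moved in the same brain arrays. Of 12 muscle markers 6 were measured, and their summed intensity was 169731.4 to 179993.1 in mock, 52152.7 to 61964.5 with LPS and 37490.6 to 44092.7 with LPS plus genipin. Mylpf, a myosin light chain of fast muscle, read 50975, 55359 and 51551 in mock, 332, 388 and 292 with LPS and 483, 434 and 446 with LPS plus genipin. Acta1, skeletal muscle actin, read 42469, 41987 and 39792, then 2232, 2379 and 2210.4, then 2812, 2510.5 and 2508 in the same order. The 3 mock arrays of brain thus held muscle transcripts at levels that the other 6 did not, and their part in the result for Cox6a2, Cox7a1 and Cox8b was not tested. The summed neuron markers were 303455.9 to 319947.3 in mock, 298640.9 to 302267.4 with LPS and 293476.8 to 308592.1 with LPS plus genipin. Microglia markers (4 of 5) were at 20145.8 to 21490.9, then 10353.6 to 12588.1, then 18144.4 to 19089.1, and the 5 choroid plexus markers 66989.3 to 67614.2 in mock, 4620.4 to 5543.2 with LPS and 70533.0 to 71341.1 with LPS plus genipin. The choroid plexus sum was carried by Ttr (−4.46 ± 0.11 with LPS, adjusted p = 1.25e-07): of the 5 markers 2 fell and 1 rose. With LPS 5 of the 6 muscle, all 4 microglia and 3 of the 8 neuron markers fell.

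**Figure D2:**
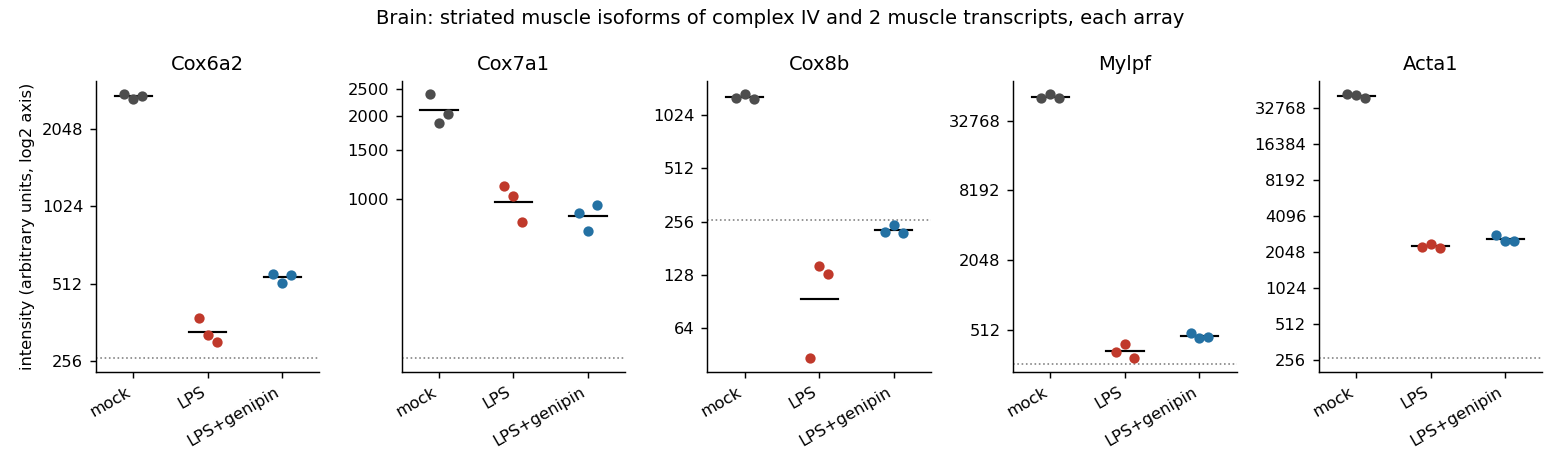
Intensity on each brain array (log2 axis, 3 arrays per group) of the muscle isoforms Cox6a2, Cox7a1 and Cox8b and of the muscle transcripts Mylpf and Acta1; bars are the means of the log2 values and the dotted line is the floor of 262.7. In all 5 panels each mock array lies above each LPS and each LPS plus genipin array.

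Of the 4 assembly factors of complex II, 2 fell in brain, and Sdhaf1 (−0.02 ± 0.12, adjusted p = 0.946) and Sdhaf2 (0.23 ± 0.10, adjusted p = 0.123) did not pass. Sdhaf3, which serves the iron-sulphur subunit, read 2486, 2477 and 2547 in mock, 1471, 1482 and 1062 with LPS and 1669.9, 1758 and 2072 with LPS plus genipin, without overlap between the groups. It was −0.92 ± 0.14 with LPS (adjusted p = 0.00175) and was 0.46 ± 0.14 higher with LPS plus genipin than with LPS (adjusted p = 0.0355). The latter call was lost in 8 settings, with adjusted p from 0.0517 to 0.314, among them 0.0678 with the replicate number as a block and 0.0517 without genipin array 1. Sdhaf4 was −0.58 ± 0.14 with LPS (adjusted p = 0.0137; 0.0504 without mock array 2), and its arrays read 4428, 4783 and 4451 in mock against 3811, 2617 and 2847 with LPS. Ndufaf2, an assembly factor of complex I, was −0.34 ± 0.06 (adjusted p = 0.00319), and Ndufaf5 was −0.53 ± 0.14 (adjusted p = 0.0214; 0.0518 without mock array 1 and 0.0773 without mock array 3). The only member that rose was Cox6b2, a form of subunit 6b best known from testis, by 0.24 ± 0.07 (adjusted p = 0.0354), and that call was lost without any 1 of 8 arrays (adjusted p 0.0509 to 0.11).

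Among the core subunits of brain, Ndufv2 was −0.22 ± 0.07 with LPS (adjusted p = 0.037), a call lost in 10 settings. Ndufv1 (−0.05 ± 0.04), Ndufs1 (−0.19 ± 0.22), Uqcrfs1 (−0.15 ± 0.17), Uqcrc1 (0.17 ± 0.10) and Uqcrc2 (0.14 ± 0.12) did not pass, with adjusted p between 0.195 and 0.522. Among isoforms, Cox7a2l (−0.26 ± 0.15, adjusted p = 0.203), Cox7b2 (−0.19 ± 0.18, adjusted p = 0.453) and Ndufa4 (−0.08 ± 0.13, adjusted p = 0.684) did not pass either.

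Genipin after LPS moved few members in brain. Against LPS alone, 5 of 60 readable members rose (8.33%) and 2 fell (3.33%), where 16.6% and 14% of readable genes did. All members included, 9 of 77 passed, against 30.3% of all genes, and leaving out genipin array 1 left 4, mock array 1 or 3 left 5. Ndufa3, an accessory subunit of complex I, read 19661, 20557 and 20674 in mock, 16102, 17136 and 15652 with LPS and 21602, 19582 and 19298 with LPS plus genipin. The LPS arrays of Ndufa3 lay below all others, with differences of −0.32 ± 0.06 for LPS against mock (adjusted p = 0.00521) and 0.31 ± 0.06 for LPS plus genipin against LPS (adjusted p = 0.00697). Ndufs3, a core subunit of complex I, went the other way: it read 1262, 1351 and 1289 in mock, 1456, 1401 and 1886 with LPS and 1006, 1212 and 1115 with LPS plus genipin, a difference of −0.50 ± 0.12 between the last groups (adjusted p = 0.0157; 0.0554 without genipin array 1).

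Also passing against LPS in brain were Ndufb7 (−0.34 ± 0.10, adjusted p = 0.0398, lost without any 1 of 7 arrays at 0.0576 to 0.123), Ndufa5 (0.23 ± 0.05, adjusted p = 0.00918) and the bright gene Atp5k (0.35 ± 0.09, adjusted p = 0.0225; 0.0765 without genipin array 2). Ndufa5 has a second probe whose LPS difference had the opposite sign (0.17 against −0.29), and the mean of the probes passed in neither comparison (adjusted p = 0.619 and 0.434). Against mock, 7 of 60 readable members were lower with LPS plus genipin (11.7%) and 0 higher, where 5.59% and 9% of readable genes were. With bright members 8 of 77 passed, against 14.4% of all genes. That count was 14 without LPS array 3, 5 without any 1 genipin array or mock array 2, and 3 without mock array 1 or 3. Beyond the muscle isoforms, the largest were Cox5a (−0.34 ± 0.08, adjusted p = 0.0338, some arrays at 60000 or more) and Atp5d (−0.28 ± 0.07, adjusted p = 0.0407), each lost without any 1 of several arrays (adjusted p 0.0549 to 0.118 and 0.0807 to 0.144).

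In heart, LPS was followed by lower levels of complex I subunits and of assembly factors, and 19 of the 35 readable members were higher with genipin than with LPS alone. Of the 35 readable members, 20 fell (57.1%) and 1 rose, where 29.3% of readable genes fell and 18.4% rose, and their median was −0.357 against −0.0659 for all readable genes. With bright members included, 27 of 77 passed, against 47.2% of all genes. Complex I had 8 of 14 readable members lower, complex III 2 of 3, complex IV 1 of 4, complex V 1 of 1, complex II 0 of 2, and the assembly factors 8 of 11. Scaling the arrays by cyclic loess moved the share of called genes that were higher from 38.7% to 50.4%. It left a median of −0.2414 for the readable members, and 1 higher and 17 lower calls among all 77. With that scaling 2161 of all 9590 genes were called higher and 2124 lower, and their median was 0.0101. In every setting and with any 1 array left out, 15 of the 27 calls were kept.

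Ndufs3, a core subunit of the part of complex I that takes up electrons, read 2219, 2060.2 and 2433 in mock, 1249.9, 1600.0 and 1251 with LPS and 2108, 2063 and 1915 with LPS plus genipin. All LPS arrays were below all others, and the other groups overlapped. The differences were −0.72 ± 0.11 for LPS against mock (adjusted p = 0.00101) and 0.58 ± 0.11 for LPS plus genipin against LPS (adjusted p = 0.00381). Of the accessory subunits of complex I, Ndufb11 read 3711, 3303 and 3228, then 2437, 2793 and 2411, then 3146, 3264 and 3395 (−0.42 ± 0.08 and then 0.36 ± 0.08, adjusted p = 0.00323 and 0.00833). Ndufb7 read 18570.2, 25563 and 27268, then 13772, 16061 and 17976, then 27739, 25052 and 24203, so that its LPS arrays lay below the rest (−0.57 ± 0.16 and then 0.69 ± 0.16, adjusted p = 0.0175 and 0.00843). Its LPS call was lost without LPS array 1, mock array 2 or mock array 3 (adjusted p 0.058 to 0.0608). Ndufs1, the largest core subunit, was 0.62 ± 0.13 higher with genipin (adjusted p = 0.00599) after a difference of −0.35 ± 0.13 with LPS that did not pass (adjusted p = 0.0574).

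Uqcrfs1, the Rieske iron-sulphur protein of complex III, read 4794, 5267 and 5764 in mock, 3694, 3075 and 3508 with LPS and 6028, 5146 and 6302 with LPS plus genipin. Its LPS arrays again stood below the others, with differences of −0.62 ± 0.11 (adjusted p = 0.00196) and 0.76 ± 0.11 (adjusted p = 0.000854). Atp5j, coupling factor 6 of complex V and its only readable gene in heart, read 31950.1, 36068 and 34833, then 25651, 22967 and 22674, then 36462, 31408 and 31218. It was −0.53 ± 0.09 with LPS (adjusted p = 0.00139) and was 0.47 ± 0.09 higher with genipin (adjusted p = 0.00311).

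Among the complex IV isoforms of heart, Cox6a1, the form outside muscle, read 29527, 20782 and 26235 in mock, 36235, 37732 and 37004 with LPS and 25106, 26579 and 23970.3 with LPS plus genipin. It was the 1 member that rose with LPS (0.55 ± 0.12, adjusted p = 0.00559) and the 1 that fell from LPS to LPS plus genipin (−0.55 ± 0.12, adjusted p = 0.0066). Its muscle partner Cox6a2 had arrays at 60000 or more, as did Cox7a1 and Cox8b. Cox7a2 was −0.39 ± 0.12 with LPS (adjusted p = 0.0302) and 0.40 ± 0.12 with genipin against LPS (adjusted p = 0.0286), and both calls were lost in 7 settings each (adjusted p 0.0538 to 0.102 and 0.0548 to 0.0912). Cox7a2l, which links complex IV into supercomplexes, differed by −0.22 ± 0.13 with LPS (adjusted p = 0.208), and Cox6b2 by 0.45 ± 0.22 (adjusted p = 0.129).

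Among the assembly factors of heart, Sdhaf4 read 8533, 9027 and 10006 in mock, 4452, 4055 and 4782 with LPS and 7395, 8058 and 8992 with LPS plus genipin. The LPS arrays lay far below the others, and the mock and genipin groups overlapped. The differences were −1.05 ± 0.10 (adjusted p = 6.47e-05), 0.88 ± 0.10 (adjusted p = 0.000251) and, against mock, −0.17 ± 0.10 (adjusted p = 0.248). Ndufaf5 was −0.68 ± 0.14 with LPS (adjusted p = 0.00467). Sdhaf3 read 1869, 752 and 707 in mock and 452, 1168 and 1652 with LPS, overlapping widely, and was not called. Among bright genes, Ndufb3 of complex I was −0.75 ± 0.11 (adjusted p = 0.000808), a value that the upper end of the scale may hold down.

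**Figure D3:**
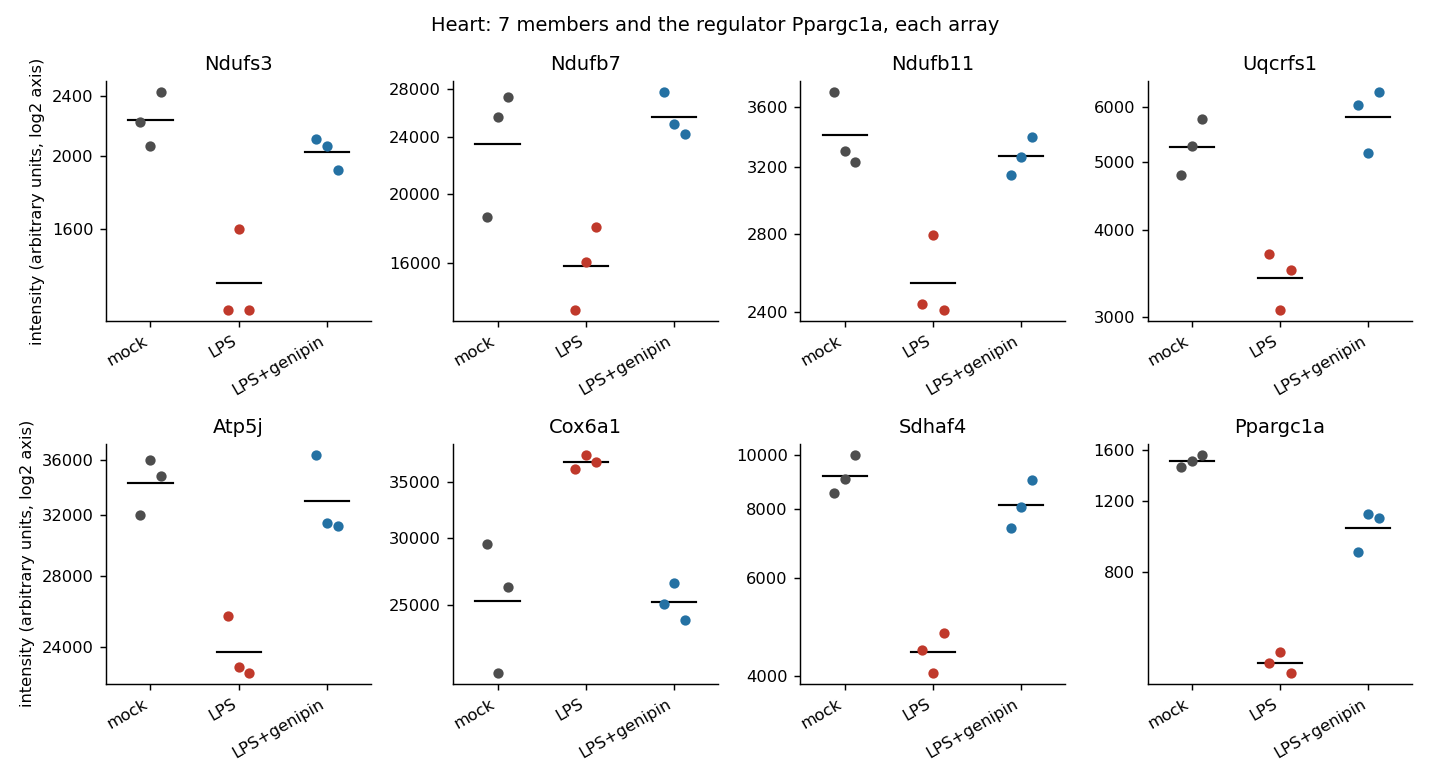
Intensity on each heart array (log2 axis, 3 arrays per group) of 7 members and of the regulator Ppargc1a; bars are the means of the log2 values. In each panel except Cox6a1 all LPS arrays lie below all mock and all LPS plus genipin arrays, and in Cox6a1 they lie above.

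With genipin after LPS, 19 of the 35 readable members of heart were higher than with LPS alone (54.3%) and 1 was lower, where 22.3% of readable genes were higher and 20.1% lower. All members included, 24 of 77 passed, against 42% of all genes, and 15 of the 24 calls were kept in every setting. The median was 0.307, against 0.0309 for all readable genes. This comparison and that of LPS with mock share the 3 LPS arrays. Against mock, 1 member passed, against 19.7% of all genes (of readable genes, 12.4% lower and 7.55% higher), and the median of the readable members was −0.0461, the same as that of all readable genes. This member was Ndufaf4 (−0.30 ± 0.09, adjusted p = 0.0437), lost in 9 settings, among them leaving out any genipin array, LPS array 1 or any mock array (adjusted p 0.0541 to 0.117).

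Markers of other cell types moved with the LPS heart arrays. The 3 measured atrial markers of 5 summed to 27729.5 to 34087.1 in mock, 151610.3 to 156671.6 with LPS and 19408.9 to 20773.1 with LPS plus genipin. Adipocyte markers (5 of 9 measured) summed to 16126.1 to 21031.1, then 113411.4 to 128589.2, then 19892.3 to 27622.9, and hepatocyte markers (4 of 8) to 3097.4 to 3478.4, then 17271.4 to 28074.9, then 4490.3 to 5422.5. Of these hepatocyte markers Cyp2e1 alone rose (4.29 ± 0.21, adjusted p = 1.36e-06) and 2 fell, while 4 of the 5 adipocyte markers, 2 of the 3 atrial and all 3 neutrophil markers rose with LPS. Neutrophil markers (3 of 7) went from 2283.9 to 2487.5 in mock to 39891.7 to 45108.6 with LPS and 16747.4 to 18012.3 with LPS plus genipin. Myl7, the atrial myosin light chain, read 1414, 1219 and 1260.1 in mock, 65488, 65486 and 65485 with LPS and 679, 773 and 696 with LPS plus genipin. The 9 cardiomyocyte markers, most of them near the upper end of the scale, summed to 576044.4 to 588793.2, then 505705.3 to 579491.4, then 583577.8 to 586512.4. None of these measured markers was at the floor on all arrays, and their part in the lower values of the members was not tested.

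In kidney, LPS was followed by lower assembly factors and by small decreases of complex I subunits. LPS plus genipin against mock gave 26 lower among the 51 readable members (51%), where 24.6% of readable genes were. The 2 comparisons share the mock arrays, so these counts are not independent. With LPS alone, 27 of the 51 readable members fell (52.9%) and 1 rose, where 39.7% of readable genes fell and 25.6% rose. All members included, 29 of 76 passed, against 64.6% of all genes. Complex I had 12 of 23 readable members lower, complex II 2 of 4, III 1 of 3, IV 2 of 6, V 0 of 4, and the assembly factors 10 of 11. The median was −0.191 for the readable members, −0.418 for the assembly factors and −0.0928 for all readable genes. Cyclic loess moved the share of called genes that were higher from 39.3% to 52.1%. With it 1 member of 76 was called higher and 13 lower, and the median of the readable members was −0.091. Of all 9534 genes, 3044 were then called higher and 2800 lower, and their median was 0.0049.

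Sdhaf3 read 1814, 1665 and 1839 in mock kidney, 869.5, 769 and 906 with LPS and 1039.8, 1241 and 1254 with LPS plus genipin. The 3 groups were apart, with LPS lowest and genipin between. The differences were −1.07 ± 0.09 (adjusted p = 2.56e-05), 0.47 ± 0.09 (adjusted p = 0.0031) and −0.59 ± 0.09 (adjusted p = 0.00133), of which the last 2 were lost in 1 fit over all 36 arrays (adjusted p = 0.258 and 0.178). Sdhaf4 read 4172, 3659 and 4303, then 2967, 2383 and 2106, then 2479, 2579 and 2856, and Sdhaf1 8326, 7364 and 8810.4, then 5851, 5272 and 5416, then 5572, 6486 and 5281. For both genes mock was above the treated groups, which overlapped each other. Sdhaf4 was −0.71 ± 0.13 with LPS and −0.62 ± 0.13 with LPS plus genipin (adjusted p = 0.00152 and 0.00547), and Sdhaf1 −0.56 ± 0.09 and −0.50 ± 0.09 (adjusted p = 0.00108 and 0.00357).

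Some assembly factors were higher with genipin than with LPS. Ndufaf4, a factor of complex I, read 9163, 8936 and 8670.1 in mock, 5735, 5669 and 5767 with LPS and 8603, 8640.2 and 8156 with LPS plus genipin. It was −0.64 ± 0.04 with LPS (adjusted p = 3e-06), 0.56 ± 0.04 with genipin against LPS (adjusted p = 1.32e-05) and −0.08 ± 0.04 against mock (adjusted p = 0.138). Sdhaf2, which attaches the flavin of complex II, read 5381, 5481 and 5288, then 4173, 3741 and 4189, then 5046, 5280.5 and 5183. Its LPS arrays were below all others (−0.42 ± 0.05 and then 0.36 ± 0.05, adjusted p = 0.000171 and 0.000596). Ndufaf6 was lower than mock in both treated groups, at −0.54 ± 0.10 with LPS and −0.50 ± 0.10 with LPS plus genipin (adjusted p = 0.00186 and 0.00465).

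Subunits moved less in kidney. The accessory subunit Ndufb3 was −0.52 ± 0.12 with LPS (adjusted p = 0.0055). Among core subunits, Ndufv2 differed by −0.15 ± 0.04 (adjusted p = 0.00641; 0.144 by cyclic loess), Ndufv1 by −0.07 ± 0.06 (adjusted p = 0.331), Sdha by −0.12 ± 0.07 (adjusted p = 0.189) Ndufs1 by −0.12 ± 0.09 (adjusted p = 0.253), Uqcrc1 by −0.12 ± 0.09 (adjusted p = 0.296) and Uqcrfs1 by −0.23 ± 0.09 (adjusted p = 0.0615). Among isoforms, Cox7a2 was −0.21 ± 0.08 (adjusted p = 0.0422), a call lost in 10 settings, among them leaving out any genipin or LPS array or mock array 2 or 3 (adjusted p 0.0596 to 0.215). Not passing were Cox7a1 −0.11 ± 0.10 (adjusted p = 0.351) and Cox7a2l −0.15 ± 0.08 (adjusted p = 0.143). Cox6b2 alone rose with LPS (0.25 ± 0.08, adjusted p = 0.0316), a call lost without LPS array 2 or 3 or mock array 2 or 3 (adjusted p 0.0683 to 0.104). Cox8b read 2744, 2592 and 2507 in mock, 2445, 2287 and 2238 with LPS and 3141, 3035 and 3188 with LPS plus genipin, where it stood above both other groups. It was 0.43 ± 0.05 higher than with LPS and 0.26 ± 0.05 higher than in mock (adjusted p = 0.000235 and 0.00415). The muscle transcript Mylpf also stood apart in those arrays, reading 509, 559 and 557 in mock, 442, 442 and 418 with LPS and 2677, 2839 and 2853 with LPS plus genipin, while the 4 measured of 12 muscle markers summed to 15299.3 to 18151.9, then 12538.9 to 12972.6, then 17826.8 to 20817.9. The 3 measured of 5 brown fat markers summed to 5668.2 to 5835.7 in mock, 5291.6 to 5538.5 with LPS and 7462.7 to 7619.8 with LPS plus genipin. Against mock, 2 of these 3 were higher with LPS plus genipin and 0 lower. The part of the muscle and brown fat markers in the Cox8b result was not tested.

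Against LPS, genipin in kidney came with 5 readable members higher (9.8%) and 1 lower (1.96%), where 32.7% and 22.9% of readable genes were. All members included, 7 of 76 passed, against 54.9% of all genes. Cyclic loess gave 5 higher and 7 lower, where 2535 of all 9534 genes were called higher and 2630 lower. Leaving out genipin array 3 gave 6 higher and 5 lower. The fifth largest rise was that of Ndufa7 (0.16 ± 0.04, adjusted p = 0.0139; 0.105 by cyclic loess and 0.699 in 1 fit over all arrays). The 1 that fell was Ndufc2, a subunit of the membrane arm of complex I, at 18045, 11822 and 19019 in mock, 18145, 19321 and 20063 with LPS and 11398, 10611 and 13255 with LPS plus genipin (−0.71 ± 0.17, adjusted p = 0.00957). Mock array 2 lay among the genipin arrays and the other mock arrays near the LPS arrays. Against mock, 26 readable members were lower with LPS plus genipin (51%) and 1 higher, where 24.6% and 20.3% of readable genes were. All members included, 27 of 76 passed, against 44.5% of all genes. In 1 fit over all arrays 16 passed, without 1 array the count was 18 to 27, and 10 of the 27 calls were kept in every setting and with any 1 array left out. The difference had a median of −0.22 for the readable members and −0.0466 for all readable genes. Beside the Sdhaf genes and Ndufaf6 named above, the largest was Ndufab1, the mitochondrial acyl carrier protein (−0.54 ± 0.07, adjusted p = 0.000503).

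Markers of other cell types were also followed in kidney. The 6 proximal tubule markers summed to 314387.7 to 338839.6 in mock, 305916.3 to 312508.0 with LPS and 299704.9 to 303536.0 with LPS plus genipin. Hepatocyte markers (4 of 8 measured) went from 20438.8 to 27651.0 in mock to 49101.8 to 53762.5 with LPS and 57336.9 to 63317.7 with LPS plus genipin. Adipocyte markers (6 of 9) were at 92597.8 to 98438.6, then 100511.8 to 106353.9, then 124601.5 to 130937.6. Fibroblast and pericyte markers (7 of 7) were at 37328.6 to 38854.5, then 35355.0 to 35800.1, then 56546.8 to 57379.6. Endothelial markers (6 of 7) were at 26998.4 to 27844.8, then 20259.2 to 20829.2, then 22284.7 to 23750.7, and the 1 measured neutrophil marker, S100a9, at 248.1 to 362.8, then 4371.8 to 6316.7, then 4481.4 to 4504.1. With LPS, 2 of 6 proximal tubule and 4 of 6 endothelial markers fell (1 rose), 4 of 7 fibroblast and pericyte markers fell (1 rose), and 4 of 4 hepatocyte, 4 of 6 adipocyte and the 1 neutrophil marker rose. Monocyte and macrophage markers (4 of 8, all higher with LPS) were at 4066.8 to 4695.2, then 6272.0 to 6638.6, then 6406.1 to 7119.9. Their part in the kidney results was not tested.

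In liver, LPS was followed by lower levels of all 10 measured assembly factors and all 4 subunits of complex II. Of the 65 readable members, 39 fell (60%) and 2 rose, where 37.6% of readable genes fell and 29.4% rose. All members included, 42 of 73 passed, against 66.4% of all genes, and 25 of the 42 calls were kept in every setting and with any 1 array left out. Complex I had 16 of 32 readable members lower, III 4 of 6, IV 2 of 7 with 2 higher, and V 3 of 6. Medians were −0.239 for the readable members, −0.647 for the assembly factors and −0.0361 for all readable genes, and by cyclic loess the readable members had a median of −0.1662.

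Sdhaf1 read 2438, 3119 and 2362 in mock liver, 988, 997 and 771 with LPS and 1269, 1444 and 1436 with LPS plus genipin. The groups were apart, with genipin between LPS and mock. Its differences were −1.52 ± 0.14 (adjusted p = 2.96e-05), 0.60 ± 0.14 (adjusted p = 0.00748) and −0.92 ± 0.14 (adjusted p = 0.000602). Sdhaf4 was lower than mock in both treated groups, reading 3319.5, 3140.4 and 2679.8, then 1572, 1265 and 1234, then 1189, 1238 and 1258 (−1.17 ± 0.11 with LPS and −1.31 ± 0.11 with LPS plus genipin against mock, adjusted p = 3.79e-05 and 2.67e-05). Sdhaf3 read 1379, 1356 and 1171, then 729.9, 200.2 and 601, then 854, 927 and 999, with 1 LPS array under the floor. It was −1.42 ± 0.33 with LPS (adjusted p = 0.00612) and 0.93 ± 0.33 higher with genipin (adjusted p = 0.0462), and the second call was lost in 9 settings, LPS array 3, any mock array or any genipin array left out among them (adjusted p 0.0525 to 0.118).

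In liver the subunits that these factors serve fell too. Sdhb, the iron-sulphur subunit of complex II, read 27706, 30001 and 26995 in mock, 19800.1, 17142 and 17845 with LPS and 24755, 25466 and 23764 with LPS plus genipin. The LPS arrays were the lowest and the genipin arrays lay between, with differences of −0.63 ± 0.07 (adjusted p = 8.81e-05) and 0.44 ± 0.07 (adjusted p = 0.0012). Sdha, the flavoprotein, was −0.36 ± 0.11 with LPS (adjusted p = 0.0173; 0.0564 without LPS array 3 and 0.056 without mock array 3). The membrane anchors Sdhc and Sdhd were −0.48 ± 0.08 and −0.50 ± 0.06 (adjusted p = 0.000919 and 0.000187). In brain the same subunits lay between −0.08 and 0.12 with LPS and none passed. In kidney Sdhc and Sdhd were −0.20 ± 0.06 and −0.22 ± 0.06 (adjusted p = 0.0207 and 0.015, lost by cyclic loess at 0.125 and 0.0821). The Sdhc call was also lost without LPS array 2 or mock array 2 or 3 (adjusted p 0.059 to 0.0655). Kidney Sdhb (−0.02) and Sdha (−0.12) did not pass. In heart Sdhd, with part of its arrays at 60000 or more, was −0.47 ± 0.07 (adjusted p = 0.00103), a value that the upper end of the scale may hold down. Heart Sdha (−0.20), Sdhb (−0.11) and Sdhc (−0.14) did not pass. The LPS difference varied among tissues for Sdhb, Sdhc and Sdhd (F test, adjusted p = 9.25e-06, 0.00541 and 7.34e-05), where 77% of all genes passed that test. That of Sdha was not shown to differ among tissues (F test, adjusted p = 0.204). Sdhb and Sdhd had some heart arrays at 60000 or more.

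**Figure D4:**
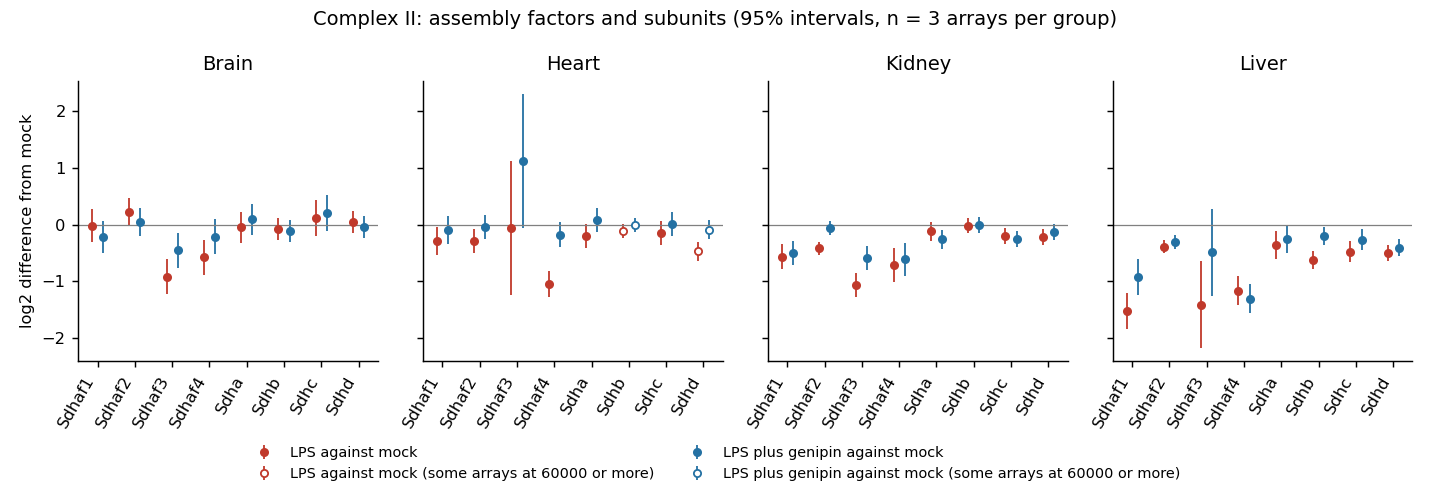
Log2 difference from mock (points, with 95% intervals, 3 arrays per group) of the assembly factors and subunits of complex II with LPS and with LPS plus genipin in each tissue; open symbols mark genes with some arrays at 60000 or more. With LPS in liver all 8 genes lie below 0, from −0.36 for Sdha to −1.52 for Sdhaf1, and in brain the 4 subunits lie between −0.08 and 0.12.

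Complex I genes that fell with LPS in liver included core, accessory and assembly genes. Of the 32 readable subunits of complex I 16 fell (50%), where 37.6% of readable genes did. Ndufaf3, an assembly factor, read 3638, 3974 and 4025 in mock, 2362, 2379.5 and 2206 with LPS and 1962, 2090.0 and 2039.5 with LPS plus genipin. The 3 groups were apart, with the genipin arrays the lowest (−0.74 ± 0.06 and, against mock, −0.93 ± 0.06, adjusted p = 1.14e-05 and 4.98e-06). Between LPS and LPS plus genipin Ndufaf3 differed by −0.19, a call lost in 5 settings (adjusted p 0.0519 to 0.0774). Ndufb3 read 13121, 16341 and 13819, then 8617, 8313 and 6254, then 7299.7, 6591 and 7489 (−0.91 ± 0.14 and −1.01 ± 0.14, adjusted p = 0.000548 and 0.000338). The core subunit Ndufs7 read 18772, 18567 and 19426, then 12539, 11882 and 11721, then 10254, 10836 and 10346, again lowest with genipin (−0.20 ± 0.05 against LPS, adjusted p = 0.00777). Ndufaf4 did the opposite of Ndufaf3 after genipin: it read 4641, 4279 and 4966, then 3063, 3814 and 3152, then 5258, 5264 and 5241. Its LPS arrays were below the others (−0.47 ± 0.09, adjusted p = 0.00215), and genipin against LPS gave 0.66 ± 0.09 (adjusted p = 0.000616).

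Of the other subunits of liver, Ndufv2 was at −0.21 ± 0.06 with LPS (adjusted p = 0.0175; 0.106 by cyclic loess, 0.053 without LPS array 2 and 0.0603 without mock array 2), Uqcrc2 at −0.30 ± 0.08 (adjusted p = 0.0102) and Cox5a, a subunit of complex IV, at −0.31 ± 0.10 (adjusted p = 0.0273). The Cox5a call was lost in 5 settings, among them leaving out LPS array 1 or 2 or mock array 1 (adjusted p 0.059 to 0.0916). Not passing were Ndufv1 (−0.09 ± 0.08), Ndufs1 (−0.33 ± 0.14), Uqcrc1 (−0.15 ± 0.15) and Uqcrfs1 (−0.31 ± 0.15), with adjusted p of 0.316, 0.0661, 0.391 and 0.111. The 2 members that rose with LPS were isoforms of complex IV. Cox6b2 read 1586, 1383 and 1539 in mock, 1702, 1846 and 2139 with LPS and 1572, 1539.6 and 1334 with LPS plus genipin (0.33 ± 0.10 and then −0.35 ± 0.10, adjusted p = 0.0222 and 0.0212). The first of these calls was lost without LPS array 3 (adjusted p = 0.0622) or mock array 2 (0.0758), and the second without LPS array 3 (0.057) or genipin array 3 (0.0693). Cox7a1 was near the floor, at 243, 271 and 251 in mock, 318, 321 and 337 with LPS and 283, 280.4 and 240.1 with LPS plus genipin (0.29 ± 0.05 with LPS and −0.24 ± 0.05 for genipin against LPS, adjusted p = 0.000872 and 0.00368, the second 0.0534 in 1 fit over all arrays). Cox7a2l was −0.45 ± 0.17 (adjusted p = 0.0435), a call lost in 9 settings, while Cox7a2 (−0.17 ± 0.07), Cox6a1 (−0.06 ± 0.06), Cox6b1 (−0.11 ± 0.10) and Ndufa4 (−0.19 ± 0.18) did not pass (adjusted p 0.0726 to 0.392).

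Genipin against LPS in liver divided the readable members, with 7 higher (10.8%) and 8 lower (12.3%), where 30% and 24.7% of readable genes were. All members included, 15 of 73 passed, against 54% of all genes, and 9 did without genipin array 1. Beside those named, Ndufb11 was 0.37 ± 0.08 (adjusted p = 0.00492), Ndufb2 −0.37 ± 0.06 (adjusted p = 0.00146) and Ndufaf1 −0.28 ± 0.08 (adjusted p = 0.0246; 0.0533 without genipin array 1 and 0.0777 without genipin array 3). Against mock, 33 readable members were lower with LPS plus genipin (50.8%) and 1 higher, where 32.8% and 28.6% of readable genes were. All members included, 35 of 73 passed, against 60.8% of all genes, with a median of −0.2375 for the readable members. Ndufaf1 had the difference −0.87 ± 0.08 (adjusted p = 5.75e-05). Ndufa10 was the 1 higher (0.26 ± 0.08, adjusted p = 0.0287), and the mean of its probes did not pass (adjusted p = 0.496), nor did it without genipin array 1 or 2 or mock array 2 or 3 (0.0583 to 0.0989).

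Hepatocyte markers of liver (7 of 8 measured) summed to 410687.3 to 415510.1 in mock, 413179.8 to 422941.3 with LPS and 406694.5 to 411177.6 with LPS plus genipin. Those of neutrophils (2 of 7) went from 3598.5 to 3856.4 to 80908.8 to 86197.3 and 57211.6 to 62161.8, and those of monocytes and macrophages (6 of 8) from 19152.3 to 20024.1 to 48102.7 to 49953.5 and 46043.5 to 48503.4. Most of the hepatocyte markers were near the upper end of the scale, so their sum cannot show a fall. Both neutrophil markers rose, whereas of the monocyte and macrophage markers 2 rose and 3 fell, and Marco (2.64 ± 0.05, adjusted p = 7.62e-09) carried the sum. The part of these markers in the lower members was not tested.

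**Figure D5:**
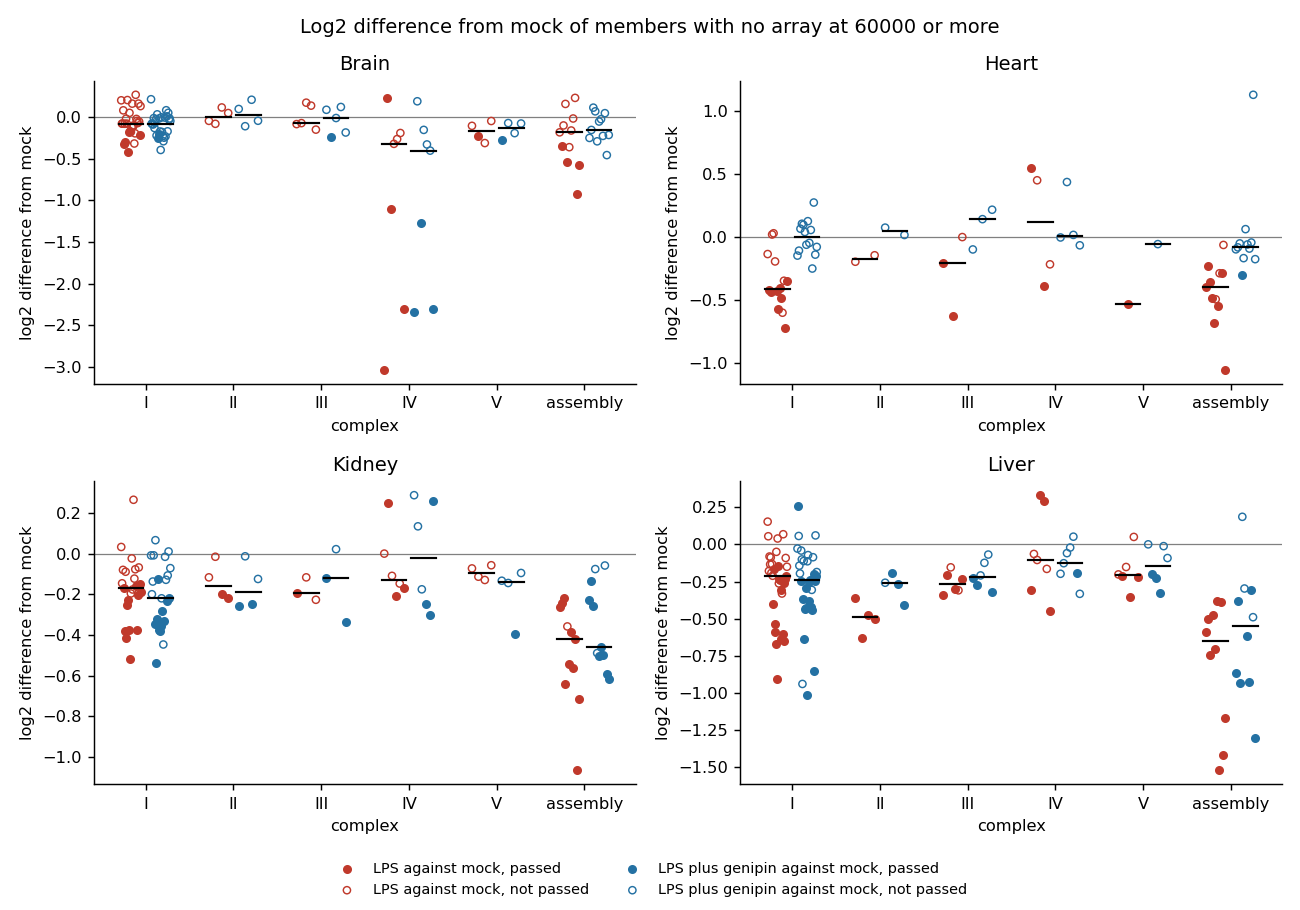
Log2 difference from mock of each readable member by complex and tissue, with LPS and with LPS plus genipin (filled points passed the threshold, bars are medians; the vertical axes differ between tissues). With LPS the assembly factors have medians of −0.65 in liver, −0.42 in kidney, −0.40 in heart and −0.18 in brain. In heart the readable members with LPS plus genipin have a median of −0.0461 and run from −0.30 to 1.13.

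Several probes of a gene gave a check within the arrays. Of 25 pairs of probes of one member within the limits of the scale, 18 had the same sign for LPS against mock, 17 for genipin against LPS and 18 for LPS plus genipin against mock. The pairs with opposite signs with LPS were those of Ndufa5 and Sdhc in brain, Ndufab1 in heart, Ndufa10 in kidney, and Cox6a1, Ndufa10 and Ndufs4 in liver, of which Ndufa5 alone was called.

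Across tissues, 32 members were readable in all 4. With LPS, 2 of these fell in no tissue (6.25%, against 36.9% of the 6471 genes readable in all 4), 8 in 1 (25%, against 25.3%), 8 in 2 (25%, against 19.7%), 12 in 3 (37.5%, against 14.8%) and 2 in all 4 (6.25%, against 3.28%). Those 2 were Ndufaf2 and Sdhaf4, and the call of Ndufaf2 in heart was lost in 10 settings (adjusted p 0.051 to 0.314). An F test over all 36 arrays tested whether the LPS difference of a gene differed among tissues. It passed for 33 of the 73 members measured in all 4 tissues (45.2%), where it passed for 77% of 6762 genes, and for 17 of the 32 readable ones (53.1%). For genipin against LPS it passed for 34 of 73 (46.6%), where it passed for 74.6% of all genes, and for 21 of the 32 readable (65.6%). Among the 32 readable in all 4 tissues, Sdhaf1 had the strongest F test result for LPS (adjusted p = 5.89e-08). Its differences were −1.52 in liver, −0.56 in kidney, −0.29 in heart and −0.02 in brain. Cox7a1, which had bright arrays in heart, had a stronger F test result for LPS (adjusted p = 1.01e-08).

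Other genes of the pathway, from a list of assembly and electron carrier genes, were read beside the members. Of these 38 genes, 29 were measured in heart, where 0 rose and 18 fell with LPS (median −0.35) and 15 rose and 0 fell with genipin against LPS. In kidney 1 rose and 22 of 29 fell with LPS (median −0.32), in liver 1 rose and 23 of 28 fell (median −0.53), and in brain 7 rose and 7 of 29 fell. Genipin against LPS gave 10 higher and 2 lower in kidney, 9 and 5 in liver, and 4 and 3 in brain. Of readable genes, 32.7% were higher and 22.9% lower in kidney in that comparison, and 30% and 24.7% in liver. In heart these shares were 22.3% and 20.1%, and in brain 16.6% and 14%. Nubpl, which inserts iron-sulphur clusters into complex I, was −0.91 ± 0.10 in heart (adjusted p = 0.000145) and −0.99 ± 0.06 in liver (adjusted p = 3.78e-06). Coa6, a copper factor of complex IV, was −0.69 ± 0.10 in heart and −1.20 ± 0.07 in liver (adjusted p = 0.000733 and 2.19e-06), and Tmem70, which serves complex V, was −1.26 ± 0.22 in liver (adjusted p = 0.00142). Of the citric acid cycle and pyruvate dehydrogenase genes, 1 of 14 rose and 0 fell in brain with LPS, 1 rose and 5 of 15 fell in heart, 1 rose and 4 of 14 in kidney, and 2 rose and 6 of 13 in liver. For all these lists the share of readable genes that fell with LPS was 37.6% in liver, 39.7% in kidney, 29.3% in heart and 17.8% in brain. Of the adenine nucleotide carriers and uncoupling proteins, 0 of 5 changed in heart with LPS, 1 of 4 fell in brain, 1 rose and 1 fell of 5 in kidney, and 2 of 3 fell in liver.

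Regulators of mitochondrial genes came from a list of 16. Of 12 measured in heart 8 fell (median −0.53), in kidney 9 of 11 (median −0.57) with 1 higher, in liver 4 of 9, and in brain 2 fell and 2 rose of 11. Genipin against LPS gave 7 higher and 0 lower in heart, 7 and 0 in kidney, 2 and 0 in liver, and 0 and 2 in brain. Of readable genes, 22.3% were higher and 20.1% lower in heart in that comparison, and 32.7% and 22.9% in kidney. In liver these shares were 30% and 24.7%, and in brain 16.6% and 14%. Ppargc1a, the coactivator PGC-1alpha, read 1452, 1503 and 1560.0 in mock heart, 479, 509.6 and 454 with LPS and 897, 1113 and 1089.6 with LPS plus genipin. The groups were apart, with genipin between (−1.65 ± 0.09 and then 1.10 ± 0.09, adjusted p = 2.95e-06 and 4.86e-05). In kidney it read 1016, 1018 and 1093, then 519, 510.3 and 459, then 1156, 1119 and 1226 (−1.07 ± 0.06 and then 1.24 ± 0.06, adjusted p = 2.49e-06 and 3.07e-06), while in brain it rose with LPS by 0.28 ± 0.06 (adjusted p = 0.0099). Perm1, a regulator of the same pathway in muscle, was −1.38 ± 0.06 in heart and −1.71 ± 0.12 in kidney (adjusted p = 1e-06 and 6.93e-06). In liver, Ppargc1b was at least 2.12-fold lower with LPS (adjusted p = 6.04e-06), and Yy1 was −0.49 ± 0.09 with LPS and 1.36 ± 0.09 for genipin against LPS (adjusted p = 0.00128 and 1.02e-05). Gabpa, which binds the ETS motif shown above, was −0.59 ± 0.11 in heart and −0.52 ± 0.08 in kidney (adjusted p = 0.00323 and 0.000932). Its liver and brain values are not given here, and the part of these regulators in the changes of the members was not tested. Nrf1, which binds the other motif, passed in none of the 4 tissues with LPS (1.02 ± 0.42 in liver, 0.19 ± 0.13 in kidney, 0.29 ± 0.22 in heart and 0.11 ± 0.09 in brain, adjusted p = 0.0604, 0.238, 0.298 and 0.384).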

How the data were processed

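RNA of 36 one-colour arrays (Cy5) was measured in 4 tissues, with 3 arrays in each of 12 groups taken from the labels. The deposited values are linear intensities that the authors had normalized, and the arrays of a tissue hold nearly the same sorted values. Limma is named, per the submitters' processing notes, without version or role. Background correction and scanner settings are not stated in the labels used here. Levels were compared neither between tissues nor between probes. Of 18183 probes, 14817 carried 1 gene symbol and 3366 none. Of the symbols, 12468 were current, 2318 were updated through synonyms of the RefSeq gene table (GRCm38.p6) and 31 kept as given.

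From the deposited intensities, values under the 5th percentile (262.7) were set to it, log2 was taken, and 1 probe per gene was kept, that of the highest mean across the 36 arrays. A group mean at either limit of the scale gave only a bound. Each tissue was fitted with limma 3.58.1 in R 4.3.3 (group means, 9 arrays), with Benjamini-Hochberg adjustment over all its genes and a threshold of 0.05. The F test over all arrays was fitted in the same way. Both were tested on simulated data. Tables and plots were made with Python 3.11.15, pandas 2.3.3, numpy 2.4.6, scipy 1.17.1 and matplotlib 3.10.9. The number of arrays limits the precision.

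The members and gene lists were chosen with earlier results of these data known. Named were the tissue isoforms, core and similar subunits (Cox5a included), up to 5 called members with the largest differences in each direction, all members at the upper limit, and genes whose probes disagreed; of other lists, up to 3 called genes, and Gabpa, Nrf1, Mylpf, Acta1, Myl7 and the marker genes named beside their sums were added after their values were seen. Same-numbered arrays deviated together in every pair only for LPS against LPS plus genipin in brain (correlations 0.142, 0.192 and 0.179). With the number as a block, 6 of the 77 brain members passed there in place of 9, and Atp5mpl (adjusted p = 0.0545), Ndufaf2 (0.0631) and Sdhaf3 (0.0678) no longer did. Alternatives were no floor, no dim genes, no bright genes, cyclic loess, the mean of a gene's probes, the probe with the highest mean in the tissue, an intensity trend, 1 fit over all arrays, the block, and each array left out.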

Additional observations from a re-analysis of the deposited data

Results flagged for a closer look

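The LPS difference varied among the 4 tissues for 33 of 73 members (45.2%), and the difference between LPS plus genipin and LPS for 34 (46.6%), by the F test over all arrays (limma). Of 6762 genes 77% and 74.6% passed the same tests. The values below run in the order brain, heart, kidney and liver, on the log2 scale.

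For LPS against mock, Sdhaf1 was at −0.02, −0.29, −0.56 and −1.52 (adjusted p = 5.89e-08). Ndufs3 was at 0.27, −0.72, −0.08 and −0.60 (adjusted p = 4.55e-07), and Ndufaf4 at 0.16, −0.48, −0.64 and −0.47 (adjusted p = 1.23e-06). Sdhaf2 was at 0.23, −0.29, −0.42 and −0.39 (adjusted p = 2.54e-05). Ndufaf3 was at −0.10, −0.36, −0.22 and −0.74 (adjusted p = 4.72e-05). Ndufs8 was at 0.16, −0.35, −0.21 and −0.23 (adjusted p = 4.73e-05), and Ndufb11 at 0.05, −0.42, −0.23 and −0.67 (adjusted p = 8.44e-05).

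For LPS plus genipin against LPS, Ndufs3 was at −0.50, 0.58, 0.06 and 0.16 (adjusted p = 1.32e-06), and Ndufaf4 at −0.09, 0.18, 0.56 and 0.66 (adjusted p = 2.54e-06). Ndufc1 was at −0.19, 0.54, −0.11 and −0.11 (adjusted p = 4.17e-05), and Ndufb7 at −0.34, 0.69, −0.16 and −0.12 (adjusted p = 4.5e-05). Sdhaf4 was at 0.36, 0.88, 0.10 and −0.14 (adjusted p = 8.4e-05). Ndufa3 was at 0.31, −0.01, −0.06 and −0.16 (adjusted p = 0.000151), Ndufaf3 at 0.21, 0.31, −0.04 and −0.19 (adjusted p = 0.000802), and Sdhaf2 at −0.18, 0.24, 0.36 and 0.08 (adjusted p = 0.000878).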

How the results depend on the processing

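Counts of called members in all 4 tissues stayed within 1.5 times of those reported under the alternatives, apart from these. Leaving out bright genes gave 17 members that differed among tissues with LPS and 21 for genipin against LPS, as fewer members were tested. In heart, LPS plus genipin against mock gave 0 by cyclic loess and with the replicate block, 2 with the mean of a gene's probes and with the intensity trend, and 3 in 1 fit over all arrays. In kidney, LPS against mock gave 14 by cyclic loess; genipin against LPS gave 12 by cyclic loess, 11 with the mean of probes and 3 in 1 fit; and LPS plus genipin against mock gave 16 in 1 fit. The cause was not tested. With 1 array left out the counts, for LPS against mock, genipin against LPS and LPS plus genipin against mock in turn, were 11 to 19, 4 to 10 and 3 to 14 in brain, 18 to 27, 19 to 24 and 0 to 1 in heart, 24 to 29, 6 to 11 and 18 to 27 in kidney, and 34 to 43, 9 to 19 and 26 to 37 in liver. Members that differed among tissues were then 29 to 35 with LPS and 30 to 37 for genipin against LPS. With the replicate block, where only numbers are shared outside the brain pairs, the counts were 15, 6 and 7 in brain, 22, 18 and 0 in heart, 27, 7 and 25 in kidney, and 36, 11 and 32 in liver. By cyclic loess the share of called genes that were higher moved from 38.1% to 50.5% for LPS plus genipin against mock in heart. Values of the opposite sign, of members not called in the report, came from the mean of probes for Atp5c1 in brain (genipin against LPS, −0.19), Ndufb8 in kidney (LPS, −0.41; genipin against LPS, 0.22) and Ndufab1 in kidney (genipin against LPS, 0.38), from the probe with the highest mean in the tissue for Ndufab1 in heart (LPS, −0.32), and from no floor for Cox8b in brain (genipin against LPS, 1.30). The upper end of the scale limits what can be read of the brightest subunits, and the floor what can be read of Cox8b in brain.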
